A study of Mus musculus with 15 samples.

Results

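The genes Dusp4, Dusp6, Spry2, Spry4, Spred1, Etv4, Etv5, Egr1, Fos and Fgfr1 form a panel of 10 genes that carry, answer or restrain signalling from fibroblast growth factor (FGF) through the kinase ERK. They were taken by name from a table of 26061 genes by a rule that uses no measured value, although earlier results of these data were known when the panel was drawn up, and all 10 were among the 19490 genes that passed the filter on low values. RNA was measured in the mouse embryonic stem cell (ESC) line E14, in 15 libraries of 3 groups with 5 libraries each. Cells of the shScr group carried a non-targeting short hairpin RNA (shRNA), those of the shTet1 group an shRNA against Tet1, and those of the shTet2 group an shRNA against Tet2. All groups shared the rest of the treatment, which was feeder-free culture in medium with serum and LIF, infection with pLKO.1 lentivirus, puromycin from 24 h after infection and 3 days of selection. Each gene was targeted with a single hairpin, so that an effect of the hairpin and of the loss of its target cannot be told apart. Nothing states that the 5 libraries of a group came from separate cultures, and the p-values then measure the spread between these libraries.

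FGF binds receptor tyrosine kinases at the cell surface, which act through adaptors and RAS to switch on the kinases RAF, MEK and ERK. ERK in turn raises immediate-early genes such as Egr1 and Fos and the ETS factors Etv4 and Etv5, and it raises its own brakes, the Dusp phosphatases and the Sprouty and Spred proteins. In ESCs the ligand FGF4 is made by the cells themselves and acts mainly through FGFR1, and this loop readies them to leave self-renewal, whereas LIF holds them in it. TET1 and TET2 are enzymes that oxidise methylated cytosine in DNA.

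Values are given on the scale of the deposited table, which is variance-stabilised and approaches log2 for well-covered genes, and the lowest value of 4.25 stands for 0 reads. Reads in genes ranged from 15258291 to 35432425 per library. Single genes of the panel had between 39 reads (Fos) and 8739 reads (Etv5) in a library, so that counting error was largest for Fos. Both targets were lower in the cells with their hairpin, with a difference of -1.84 for Tet1 in shTet1 (SE 0.19) and of -1.90 for Tet2 in shTet2 (SE 0.13), and in neither case did the libraries overlap with shScr (exact permutation p = 0.00794 each). Markers of ESCs were read in every library, from 13.56 to 14.64 for Pou5f1, which encodes OCT4, and from 6.97 to 9.53 for Utf1, the lowest of them. Of 7 fibroblast markers Lum was at the minimum throughout, whereas Thy1 was read in every library (6.48 to 7.77) and the other 5 reached at most 5.27 to 6.76. Receptor genes of the nose, olfactory and vomeronasal, took 11.1 to 26.5 of every 1000000 gene reads in 11 libraries and 54.5 to 64.7 in the other 4 (shScr replicate 4, shTet1 replicates 3 and 4, shTet2 replicate 4).

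Levels between genes were compared as reads per kilobase of exon per 1000000 gene reads. In shScr, Etv5 was the most abundant of the panel, at 66.6 ± 15.1 (SD, n = 5). Then came the feedback inhibitors Spry4 (22.5 ± 6.43), Spred1 (18.9 ± 7.36), Spry2 (18.4 ± 4.81) and Dusp6 (16.01 ± 4.14), whose ranges overlapped with each other. The lower group held Etv4 (6.997 ± 3.33), Egr1 (5.30 ± 2.91), Fgfr1 (4.18 ± 1.01), Dusp4 (3.89 ± 0.99) and Fos (2.10 ± 1.05). Of the 9 pairs of neighbours in this order, only Etv5 and Spry4, and Dusp6 and Etv4, had ranges that did not overlap.

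**Figure D1:**
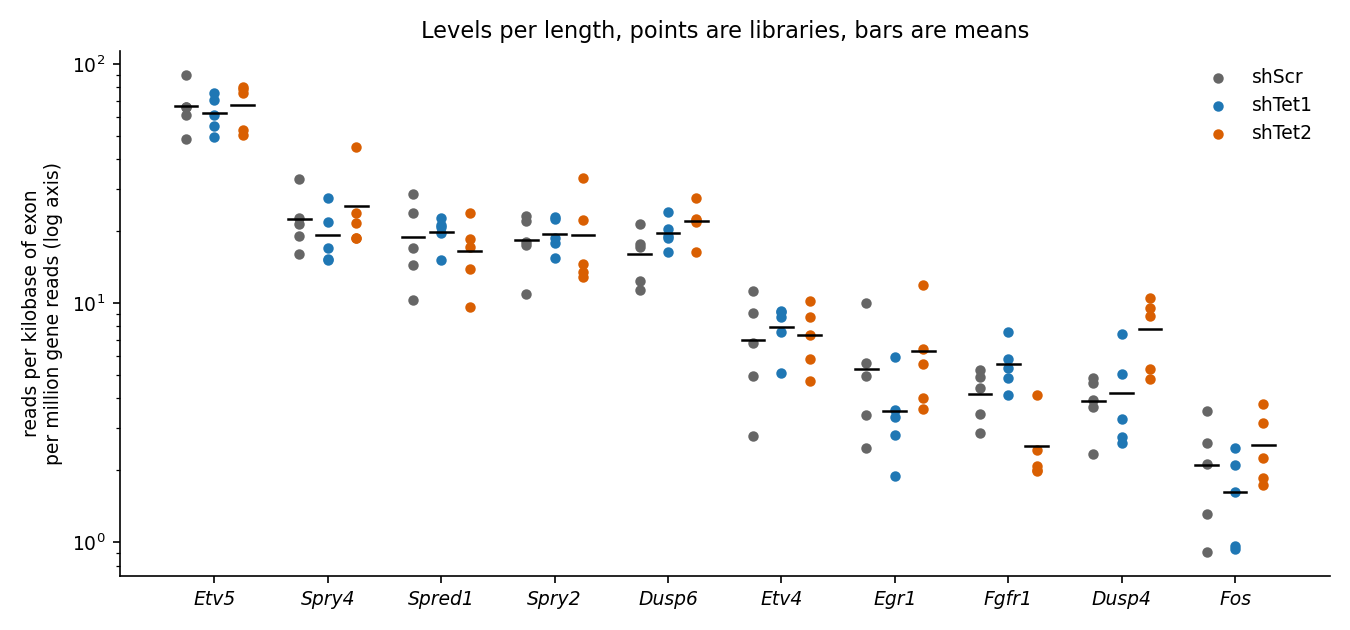
Reads per kilobase of exon per 1000000 gene reads (log axis) of the 10 genes, ordered by their mean in shScr. Points are libraries and bars are means of 5 libraries per group. Etv5 stands above all others, at 66.6 on average in shScr, and Fos is lowest at 2.10.

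Each gene was compared between shTet1 and shScr, between shTet2 and shScr, and between shTet2 and shTet1, with limma across all 19490 genes and an adjusted p-value under 0.05 as the call. These comparisons share groups and are not independent of each other. Of the panel, 0 genes were called for shTet1 against shScr, 0 for shTet2 against shScr and 1 for shTet2 against shTet1, the receptor gene Fgfr1. Over all genes tested the called shares were 0.0718%, 0.39% and 4.24% in the same order. At an unadjusted p under 0.05 the panel had 0, 3 and 3 genes, against 11.8%, 11.6% and 15.7% of all genes. limma-voom on the recovered reads also called 0, 0 and 1. The median difference of the panel was 0.03, 0.08 and 0.09, and that of all genes tested 0.01, 0.04 and 0.01.

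**Figure D2:**
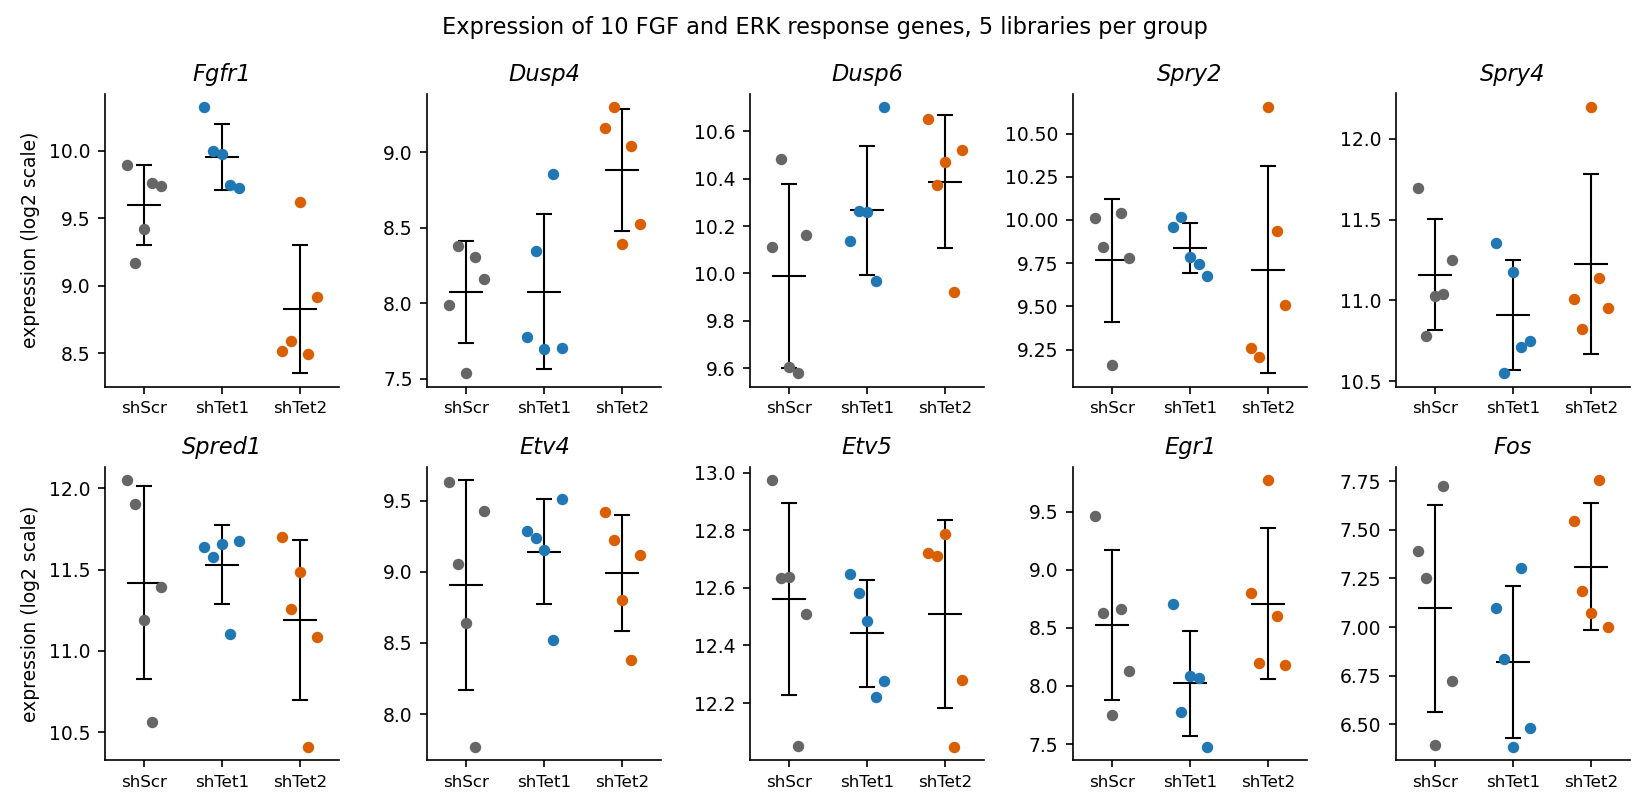
Expression on the variance-stabilised log2 scale (each panel has its own axis, which does not start at 0) of the 10 genes in shScr, shTet1 and shTet2. Points are libraries in the order of their replicate numbers, and the bars show mean ± SD of 5 libraries. The shTet2 libraries lie lowest for Fgfr1, at 8.83 on average against 9.95 in shTet1, and highest for Dusp4.

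Fgfr1, which encodes an FGF receptor of ESCs, was lower in shTet2 than in shTet1. The gene lies on chromosome 8 from 26624126 to 26686186 (mm9, plus strand), and the annotation holds a second, nested gene model of the same symbol from 26629267 to 26642853. Values in replicates 1 to 5 were 9.90, 9.17, 9.42, 9.76 and 9.74 in shScr. They were 10.33, 9.995, 9.98, 9.75 and 9.72 in shTet1, and 8.51, 8.59, 9.62, 8.49 and 8.92 in shTet2. Replicate 3 of shTet2 stood well above the other 4 libraries of its group, but still below every shTet1 library.

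The difference of Fgfr1 between shTet2 and shTet1 was -1.13 (SE 0.20, 95% interval -1.56 to -0.70, limma adjusted p = 0.00304), and in normalised reads shTet2 was at 45.4% of shTet1. The groups did not overlap (exact permutation p = 0.00794, the smallest p that 5 against 5 libraries can give), as held for 6.04% of all genes tested. Against shScr, Fgfr1 differed by -0.77 in shTet2 (95% interval -1.201 to -0.34, limma adjusted p = 0.108), with 4 of 5 shTet2 libraries below every shScr library. This difference was -0.97 with a limma adjusted p of 0.0284 without shTet2 replicate 3. In shTet1 Fgfr1 differed from shScr by 0.36 (95% interval -0.07 to 0.79, limma adjusted p = 0.536). The means of the knockdowns lay on opposite sides of that of shScr, but 2 of 5 shTet1 libraries and 1 of 5 shTet2 libraries were within the range of shScr. In replicates 1 and 2, which stood apart from replicates 3 to 5 in all groups, the difference between shTet2 and shTet1 was -1.61, and in replicates 3 to 5 it was -0.81. Exons of Fgfr1 overlap with the antisense gene Gm16159 over 1.55% of their length, so that a small part of the reads may belong to either gene.

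Some cell type markers were lower in shTet2 than in shTet1, as Fgfr1 was. Of 9 markers of ESCs, 9 were lower in shTet2 than in shTet1, with a median difference of -0.40. None of them was called by limma and 2 had an unadjusted p under 0.05, against 15.7% of all genes. With the replicate block, which called 11.2% of all genes for this comparison, 1 of the 9 was called (Dppa5a, -0.46, limma adjusted p = 0.0207). Their summed normalised reads ran from 90057 to 111260 in shTet2, from 111814 to 139340 in shTet1 and from 100301 to 119970 in shScr, and none of the markers was at 0. Of 8 markers of primitive endoderm, an extraembryonic lineage that FGF signalling promotes, 7 were lower in shTet2 than in shScr. limma called none, and 5 had an unadjusted p under 0.05, against 11.6% of all genes. The largest difference was that of the receptor gene Pdgfra, at -0.95 (limma adjusted p = 0.0535). In shTet2 against shTet1 the same number was lower, with a median difference of -0.41. Of these markers 2, against 15.7% of all genes, had an unadjusted p under 0.05 without a call by limma. These were Pdgfra and the endocytic adaptor gene Dab2, which were called lower once the replicate block was in the fit (-0.59 and -0.79, limma adjusted p = 0.0178 and 0.0353). In shTet1 against shScr all 8 endoderm markers were lower, with a median difference of -0.23 and no call by limma, whereas Fgfr1 differed by 0.36. The summed normalised reads of the list (3079.8 to 6145.3 in shTet2, 3325.5 to 5868.6 in shTet1 and 3669.4 to 5440.5 in shScr) came mostly from Sparc, the only marker that was not lower in shTet2, and no marker was at 0 throughout. The part of these markers in the Fgfr1 result was not tested, and fewer cells of a type and less RNA per cell cannot be told apart in bulk RNA.

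Dusp4, which encodes a nuclear phosphatase that inactivates ERK, was the feedback gene with the largest differences. It lies on the same chromosome as Fgfr1, from 35870351 to 35882948 (plus strand), and its values went the other way. Replicates 1 to 5 had 7.99, 8.38, 7.54, 8.31 and 8.16 in shScr. In shTet1 they had 7.78, 8.35, 7.70, 8.86 and 7.71, of which replicate 4 was high. In shTet2 they had 9.16, 9.30, 8.39, 9.04 and 8.52.

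All 5 shTet2 libraries had more Dusp4 than any shScr library, a pattern found in 2.7% of all genes tested for either direction (2.62% for shTet1 against shScr). The difference was 0.81 (SE 0.24, 95% interval 0.30 to 1.31), and shTet2 held 188% of the normalised reads of shScr. The exact permutation p was 0.00794, whereas the limma p adjusted over all genes was 0.163, so that Dusp4 was not called. Between shTet2 and shTet1 the difference was also 0.81 (limma adjusted p = 0.0682), and the groups overlapped through shTet1 replicate 4. Without that library the difference was 1.00 (limma adjusted p = 0.0179), and without shTet2 replicate 3 it was 0.93 (limma adjusted p = 0.045). An alternative fit had the replicate number as a block, on the assumption, which the labels do not state, that same-numbered libraries are pairs. There, with 11.2% of all genes called for this comparison, the limma adjusted p of Dusp4 was 0.00266. Its difference was 1.17 in replicates 1 and 2 and 0.57 in replicates 3 to 5. The interval of the difference between shTet1 and shScr ran from -0.50 to 0.51 around a value of 0.00.

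**Figure D3:**
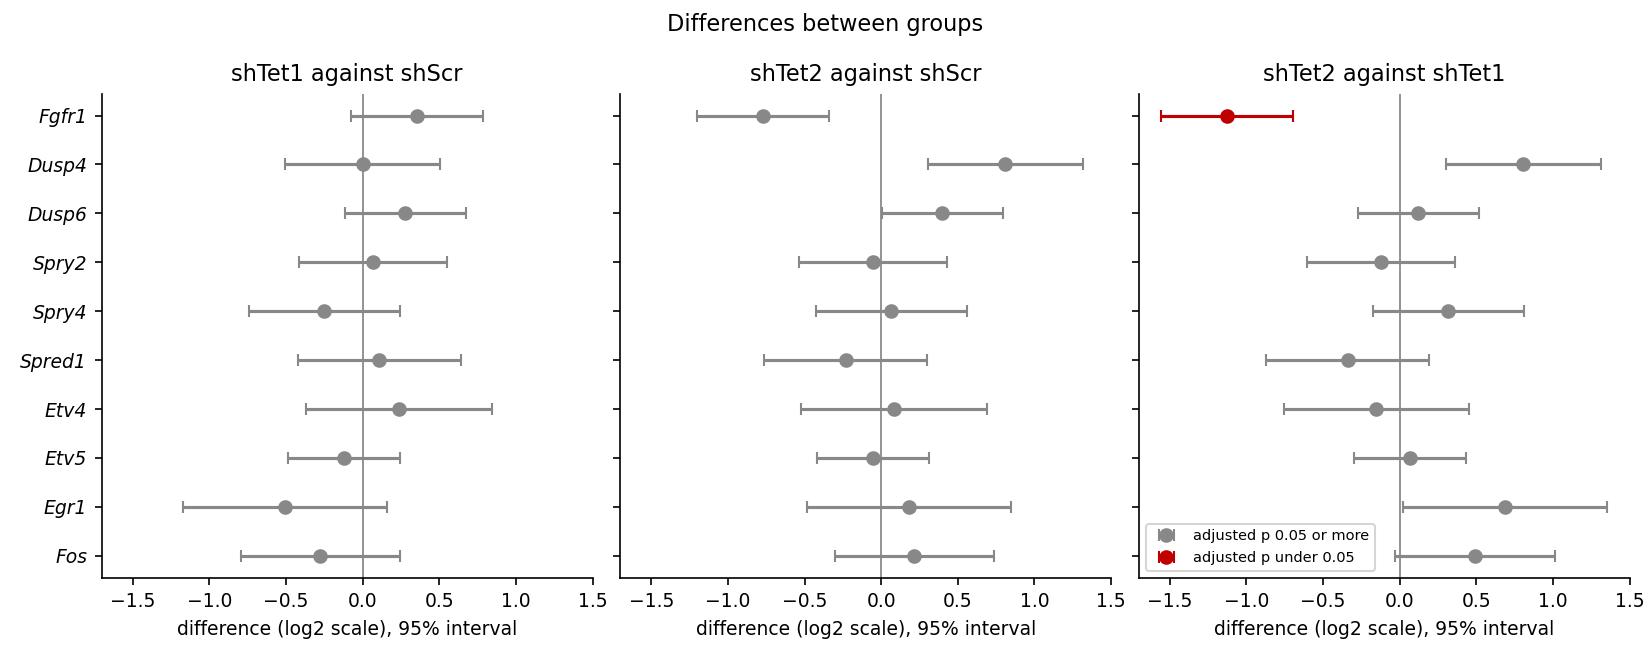
Differences of the 10 genes on the variance-stabilised log2 scale for the 3 comparisons, with 95% intervals from limma (n = 5 libraries per group). The vertical line marks no difference. Fgfr1 in shTet2 against shTet1, at -1.13, is the only difference with an adjusted p-value under 0.05, and the Dusp4 intervals lie above 0 in both comparisons of shTet2.

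Dusp6, the phosphatase of cytoplasmic ERK and a common readout of FGF signalling, had narrower differences. Its values in replicates 1 to 5 were 10.11, 10.48, 9.61, 9.58 and 10.16 in shScr. Those of shTet1 were 10.14, 10.27, 10.26, 9.97 and 10.70, and those of shTet2 were 10.65, 10.37, 10.47, 9.92 and 10.52. The low shScr replicates 3 and 4 set the control mean apart, and all groups overlapped. In shTet2 the difference from shScr was 0.40 (95% interval 0.01 to 0.79, limma adjusted p = 0.423). In shTet1 it was 0.28 (95% interval -0.12 to 0.67, limma adjusted p = 0.620).

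The immediate-early genes had their lowest means in shTet1 and their highest in shTet2, without a call. For Egr1, a zinc finger transcription factor, replicates 1 to 5 had 9.46, 8.63, 7.75, 8.66 and 8.13 in shScr. They had 8.70, 7.78, 8.09, 8.07 and 7.48 in shTet1, and 8.80, 8.20, 9.77, 8.60 and 8.18 in shTet2. Egr1 ranged over more than 1 unit within each group, the widest spread of the panel (pooled SD 0.59), and a larger spread than that of 95.4% of genes at a like level. The difference between shTet2 and shTet1 was 0.69 (95% interval 0.02 to 1.35, limma adjusted p = 0.2998), with shTet2 higher in 5 of 5 same-numbered pairs. In shTet1 it differed from shScr by -0.51 (95% interval -1.17 to 0.16, limma adjusted p = 0.586).

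Fos, a subunit of the transcription factor AP-1, had values of 7.39, 7.25, 6.39, 7.72 and 6.72 in replicates 1 to 5 of shScr. The same replicates had 7.10, 6.84, 6.38, 7.30 and 6.48 in shTet1, and 7.55, 7.18, 7.07, 7.76 and 6.999 in shTet2. Replicate 4 was the highest library of each group, and each shTet1 library was below the shScr and shTet2 libraries of its number. The difference between shTet2 and shTet1 was 0.49 (95% interval -0.03 to 1.01, limma adjusted p = 0.358). With the replicate number as a block the limma adjusted p was 0.0195, in a fit that called 11.2% of all genes for this comparison. The block thus moved the count of called genes of the panel from 1 to 3, namely Dusp4, Fgfr1 and Fos. For shTet1 against shScr the block called 0 genes of the panel and 4.8% of all genes.

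The remaining 5 genes showed no difference beyond the spread between libraries. Spry2 and Spry4 encode Sprouty proteins, which are raised by ERK and dampen receptor signalling. Mean values (± SD, n = 5) of Spry2 were 9.77 ± 0.36 for shScr, 9.84 ± 0.14 for shTet1 and 9.71 ± 0.60 for shTet2. Spry4 had 11.16 ± 0.34, 10.91 ± 0.34 and 11.23 ± 0.55 in the same order. Over the 3 comparisons the 95% intervals of their differences reached from -0.61 to 0.55 for Spry2 and from -0.74 to 0.81 for Spry4. Differences up to the ends of each interval therefore remain possible. Replicate 3 of shTet2 was the highest library of its group for both, at 10.66 for Spry2 and 12.20 for Spry4.

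Spred1, which binds neurofibromin and holds back RAS, averaged 11.42 ± 0.59 for shScr, 11.53 ± 0.24 for shTet1 and 11.19 ± 0.49 for shTet2 (± SD, n = 5). Etv4 and Etv5 are ETS transcription factors that FGF signalling induces. Etv4 had means of 8.90 ± 0.74, 9.14 ± 0.37 and 8.99 ± 0.41, and Etv5 of 12.56 ± 0.33, 12.44 ± 0.19 and 12.51 ± 0.33. The intervals reached from -0.87 to 0.64 for Spred1 and from -0.76 to 0.84 for Etv4. Etv5 had the narrowest intervals of these genes, from -0.48 to 0.25 for shTet1 against shScr and from -0.42 to 0.31 for shTet2 against shScr. The most abundant ERK target of the panel thus differed by under 0.5 in either knockdown at this precision.

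TET enzymes act on methylated cytosine, which in mammals lies mainly in CG dinucleotides, and the CG content of the promoters is therefore given as context. RefSeq promoter windows of 300 bases (GRCm38.p6, another build than that of the expression table) were at hand for 5 of the 10 genes. The windows held 40 CG dinucleotides for Spred1, 28 for Spry2, 20 for Fos and 19 for Dusp6, and 37 and 19 for the alternative starts of Etv5, against a median of 7 over 32851 promoters. The windows with the most and among the fewest CG are shown 5′ to 3′ on the strand of the gene, with each CG in capitals. That of Spred1 spans chr2:117120821-117121120 (plus strand) and that of Dusp6 chr10:99262981-99263280 (plus strand).
Spred1: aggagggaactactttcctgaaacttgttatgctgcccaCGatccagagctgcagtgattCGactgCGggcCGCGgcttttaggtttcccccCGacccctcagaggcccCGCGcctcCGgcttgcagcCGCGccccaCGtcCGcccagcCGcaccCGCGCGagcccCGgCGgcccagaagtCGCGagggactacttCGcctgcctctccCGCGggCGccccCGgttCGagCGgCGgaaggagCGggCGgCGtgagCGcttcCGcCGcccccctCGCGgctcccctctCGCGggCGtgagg
Dusp6: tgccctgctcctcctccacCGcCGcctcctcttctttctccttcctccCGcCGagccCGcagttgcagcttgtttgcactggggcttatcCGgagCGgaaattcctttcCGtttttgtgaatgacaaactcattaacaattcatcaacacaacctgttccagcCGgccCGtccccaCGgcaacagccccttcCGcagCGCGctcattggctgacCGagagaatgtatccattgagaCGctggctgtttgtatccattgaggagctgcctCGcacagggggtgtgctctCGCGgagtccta
The Spred1 window held more CG than 96.1% of all promoters and that of Dusp6 more than 71.9%. The letters of 4 motifs were searched on both strands of the windows, namely TGACGTCA (CRE), TGANTCA (AP-1), CCGGAAGT (ETS) and GCGTGGGCG (EGR), and the CArG box by its name. None of the windows of the 5 genes held a match, and among all promoters 1.79%, 7.81%, 3.89%, 0.612% and 1.63% held one in the same order. Sites that depart from these motifs, or lie outside the 300 bases, were not searched for, so these promoters may still hold such elements. DNA methylation was not part of the expression table, and these windows bear on no difference above.

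Other genes of the pathway were read from lists of ligands, receptors, cascade members, feedback inhibitors, ERK-induced genes and ETS or SRF partners. These lists held 10, 8, 22, 14, 22 and 10 tested genes in this order. In shTet2 against shTet1, the comparison in which Fgfr1 was called, a further 4 genes of these lists were called. This was near the share of all genes called there, 4.24%. None was called in shTet1 against shScr or shTet2 against shScr, against 0.0718% and 0.39% of all genes. Of 10 ligand genes, Fgf1 was higher and Fgf4 was lower. Fgf1 encodes a ligand that binds all FGF receptors, and in replicates 1 to 5 it had 7.85, 7.46, 8.41, 8.46 and 7.75 in shScr. The shTet1 libraries had 7.35, 7.32, 7.85, 8.002 and 7.41, and those of shTet2 had 8.87, 8.78, 8.57, 9.21 and 8.38. The difference between shTet2 and shTet1 was 1.18 (SE 0.21, limma adjusted p = 0.00305) with no overlap, and shTet2 was at 254% of the normalised reads of shTet1. Against shScr it was 0.78 (limma adjusted p = 0.121).

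Fgf4, the ligand that ESCs make themselves, averaged 11.91 ± 0.09 for shScr, 12.28 ± 0.27 for shTet1 and 11.68 ± 0.15 for shTet2 (± SD, n = 5). The difference between shTet2 and shTet1 was -0.59 (SE 0.13, limma adjusted p = 0.0126), and shTet2 was at 65.4% of the normalised reads of shTet1. Like Fgfr1, Fgf4 lay above shScr in shTet1, by 0.37 (limma adjusted p = 0.244), and below it in shTet2, with a difference of -0.22 (limma adjusted p = 0.556). Fgf4 and Fgfr1 were thus both lower in shTet2 than in shTet1, and Fgf1 was higher. With the replicate block the ligand gene Fgf17 was called lower as well, at -0.44 (limma adjusted p = 0.0403), in a fit that called 11.2% of all genes.

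Of 8 receptor and co-receptor genes other than Fgfr1, limma called 0 in each comparison, and 1 in each had an unadjusted p under 0.05. Between the knockdowns 15.7% of all genes reached that p, and relative to shScr 11.8% did in shTet1 and 11.6% in shTet2. The receptor and co-receptor genes with the largest differences were the heparan sulfate carrier Gpc4 and the FGF receptor partner Flrt3. Gpc4 had -0.82 in shTet1 against shScr (limma adjusted p = 0.364) and 0.62 in shTet2 against shTet1 (limma adjusted p = 0.435). Flrt3 had -0.54 in shTet2 against shScr (limma adjusted p = 0.217). The receptor gene Fgfr2 averaged more normalised reads, not corrected for length, than Fgfr1. The means were 1104 and 750 in shScr, and 1224 and 439 in shTet2. Between shTet2 and shTet1 Fgfr2 differed by 0.03 (limma adjusted p = 0.965).

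Of 22 genes of the cascade from adaptor to kinase, 15 were lower in shTet2 than in shTet1, with a median difference of -0.10 against 0.01 over all genes. Ptpn11, which encodes the phosphatase SHP2 needed for RAS activation, was the only call, against 4.24% of all genes. It averaged 11.15 ± 0.06 for shTet1, 10.52 ± 0.37 for shTet2 and 10.83 ± 0.25 for shScr (± SD, n = 5), and the difference was -0.63 (SE 0.16, limma adjusted p = 0.0312). This call was lost when any 1 of 7 libraries was left out (all 5 shTet1 libraries and shTet2 replicates 1 and 2), with limma adjusted p-values of up to 0.0974. With the replicate block the adaptor gene Shc1 (-0.36, limma adjusted p = 0.0269) and the MEK gene Map2k1 (-0.33, limma adjusted p = 0.0464) were called lower as well. That fit called 11.2% of all genes for this comparison. Against shScr limma called none, and 1 gene in each knockdown had an unadjusted p under 0.05, against 11.8% (shTet1) and 11.6% (shTet2) of all genes. The largest differences from shScr were 0.71 for the RAS exchange factor Sos2 in shTet1 (limma adjusted p = 0.188) and -0.36 for the RAF kinase gene Braf in shTet2 (limma adjusted p = 0.325). For Sos2 the limma adjusted p was 0.0479 with the replicate block, which called 4.8% of all genes for shTet1 against shScr.

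Of 14 other feedback inhibitors tested, limma called 0 in each comparison. At an unadjusted p under 0.05 there were 2 for either knockdown against shScr and 4 between the knockdowns. Of all genes, 15.7% were under that p between the knockdowns, and relative to shScr 11.8% in shTet1 and 11.6% in shTet2. Spry1, a further Sprouty gene, differed by 0.64 in shTet1 against shScr (limma adjusted p = 0.155), and Dusp5, a nuclear ERK phosphatase like Dusp4, by 0.54 in shTet2 against shScr (limma adjusted p = 0.242). Dusp9, an ERK phosphatase of the cytoplasm, differed by -0.49 in shTet2 against shTet1 (limma adjusted p = 0.0724). The phosphatase genes therefore had differences of both signs in shTet2. With the replicate block, limma called Spry1 (adjusted p = 0.0151) and Rasa2, a RAS GTPase activator with a difference of 0.46 (adjusted p = 0.0246), in shTet1 against shScr. It called Dusp9 (adjusted p = 0.00614) in shTet2 against shTet1. The shares of all genes called with the block were 4.8% and 11.2% in the same order.

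Of 22 other immediate-early and ERK-induced genes tested, 1 was called, in shTet2 against shTet1, where 4.24% of all genes were called. Plaur, the receptor of urokinase, averaged 7.44 ± 0.57 for shScr, 6.70 ± 0.21 for shTet1 and 7.85 ± 0.39 for shTet2 (± SD, n = 5). The difference between shTet2 and shTet1 was 1.14 (SE 0.24, limma adjusted p = 0.00978), with no overlap. Plaur shared with Egr1 and Fos the order of the means, lowest in shTet1 and highest in shTet2, and with 0.41 it was not called for shTet2 against shScr (limma adjusted p = 0.565). Of the 22 genes, 18 were lower in shTet1 than in shScr and 15 were higher in shTet2 than in shTet1, with median differences of -0.13 and 0.15. Of all genes tested, 52.4% were higher in shTet1 than in shScr and 52.7% were higher in shTet2 than in shTet1. The median difference of all genes was 0.01 in both comparisons. With the replicate block, limma called Plaur in shTet1 against shScr as well (-0.74, adjusted p = 0.0159), and in shTet2 against shTet1 Btg2 was called higher (0.59, adjusted p = 0.00322) and Ier2 lower (-0.61, adjusted p = 0.00323). Of all genes, the block called 4.8% and 11.2% in these comparisons. The largest difference in shTet2 against shScr was 0.49 for Ctgf (limma adjusted p = 0.722). Without the 4 libraries with many receptor gene reads, Plaur (1.14, limma adjusted p = 0.0744) and Ptpn11 (-0.63, limma adjusted p = 0.192) had about the same differences but were not called, in a fit with fewer libraries, whereas Fgfr1 was called (-1.11, limma adjusted p = 0.0487).

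Of 10 ETS and SRF partner genes, through which ERK reaches its target genes, limma called 0 in each comparison. At an unadjusted p under 0.05 there was 1, between the knockdowns, against 15.7% of all genes. The largest differences were those of Ets1, at -0.40 in shTet1 against shScr (limma adjusted p = 0.434) and 0.55 in shTet2 against shTet1 (limma adjusted p = 0.130), and of Elk4 at -0.24 in shTet2 against shScr (limma adjusted p = 0.766). With the replicate block Ets1 was called in shTet2 against shTet1 (limma adjusted p = 0.016), in a fit that called 11.2% of all genes. In Ets1, too, shTet1 was lowest and shTet2 highest.

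**Figure D4:**
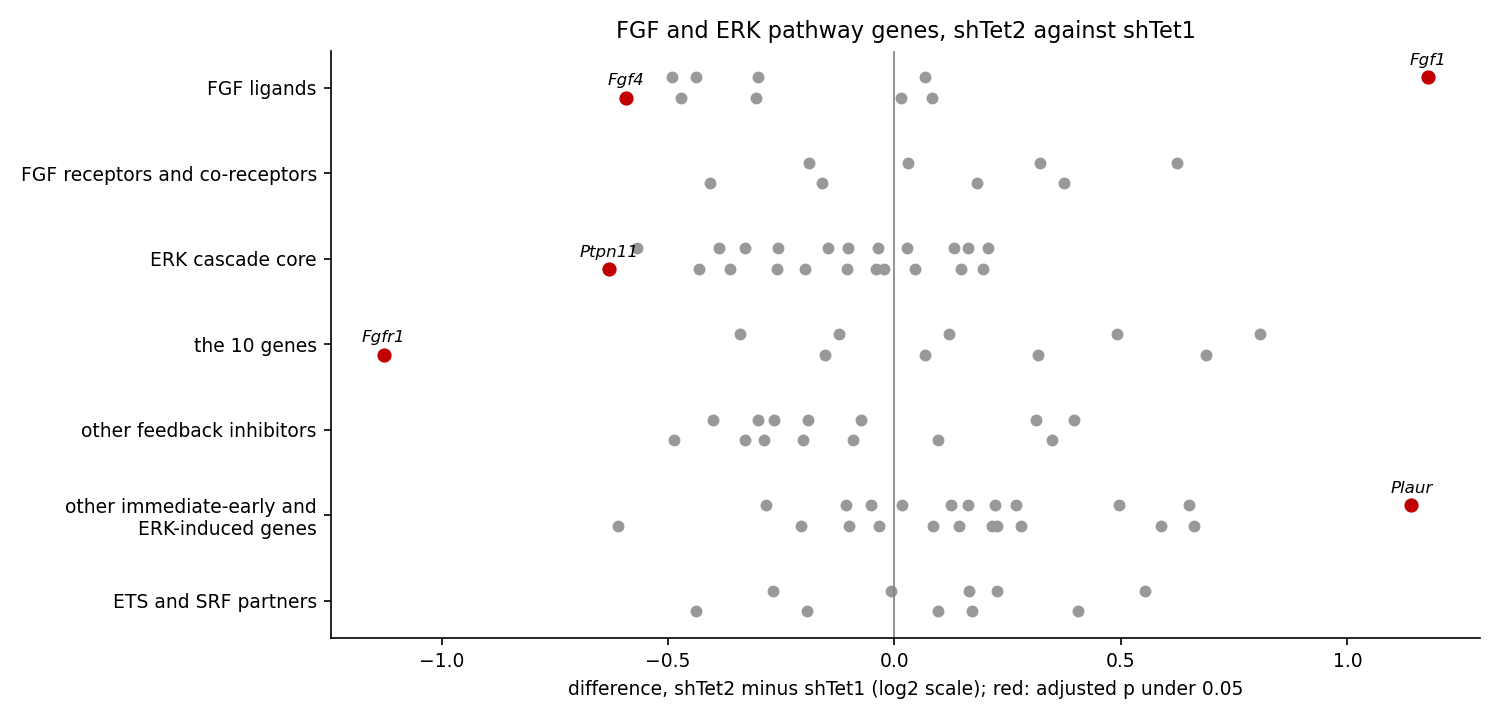
Differences between shTet2 and shTet1 on the variance-stabilised log2 scale for the 10 genes and 6 lists of other FGF and ERK pathway genes. Each point is a gene, drawn at alternating heights within its row, and red points with names have an adjusted p-value under 0.05. Fgfr1 (-1.13), Fgf4 (-0.59) and Ptpn11 (-0.63) are lower in shTet2, and Fgf1 (1.18) and Plaur (1.14) higher.

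Within groups the 10 genes varied more than most. For all 10, the pooled SD within groups was above the median of genes at a like level, from 0.29 for Etv5 (above 60.5% of such genes) to 0.59 for Egr1. The spread followed the replicate number in part. Spred1, Etv4 and Etv5 were each higher in replicates 1 and 2 than in replicates 3 to 5 in all 3 groups, with mean gaps of 0.51, 0.50 and 0.35. Etv4, Spred1, Dusp6 and Etv5 were lowest in replicate 4 of every group, where Fos was highest. These replicate 4 libraries were also among the 4 with many olfactory and vomeronasal receptor reads, and the part of those reads in these values was not tested. In shTet2 replicate 3, Spry2, Spry4, Egr1, Etv5 and Fgfr1 all had the highest value of the group. This library had the fewest gene reads of all, at 15258291.

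**Figure D5:**
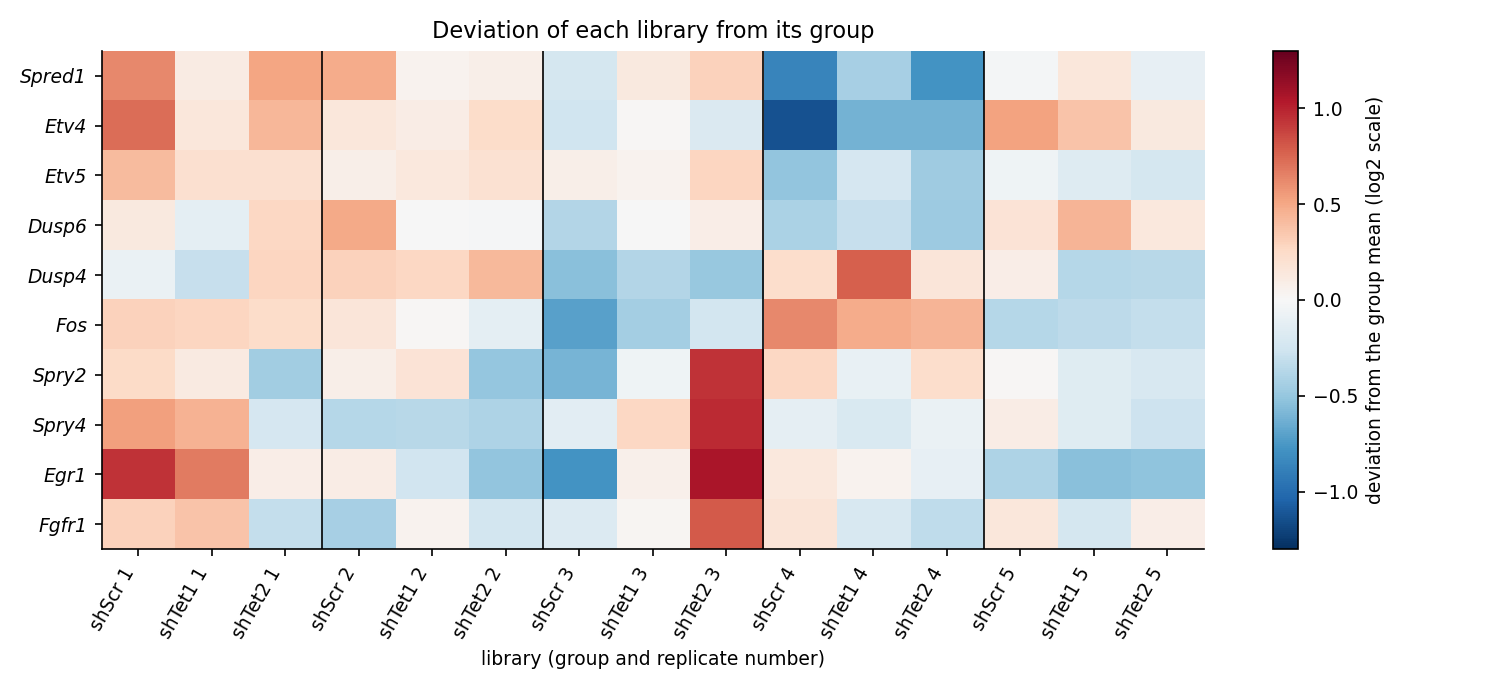
Deviation of each library from the mean of its group, on the variance-stabilised log2 scale, for the 10 genes (rows) and 15 libraries (columns, ordered by replicate number). Red is above and blue below the group mean. Etv4, Spred1, Dusp6 and Etv5 are below the mean in replicate 4 of all 3 groups. For Spry2, Spry4, Egr1 and Fgfr1, shTet2 replicate 3 is far above the group mean.

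Correlations between the genes were computed over the 15 libraries after removal of the means of each group and replicate set (1 and 2, or 3 to 5), with exact permutation within these sets. Of 45 pairs, 0 passed at an adjusted p under 0.05, and the smallest adjusted p of r was 0.130. For Spry4 and Egr1, Pearson's r was 0.85 (exact permutation p = 0.015) and Spearman's rho 0.82 (exact permutation p = 0.00868). Without the 2 libraries farthest from the median of Spry4, r was 0.75. With only the group means removed, r was 0.93 among the libraries of replicates 1 and 2 and 0.82 among those of replicates 3 to 5. For Spred1 and Etv4, r was 0.79 (exact permutation p = 0.00984) and rho 0.84 (exact permutation p = 0.00463), with an r of 0.68 without the 2 farthest libraries. With only the group means removed, r was 0.75 and 0.80 within the replicate sets. Adjusted over the 45 pairs, the p-values of r of both pairs were 0.130 and those of rho 0.126.

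Among 8592 well-covered genes, the gene most like Fgfr1 over the 15 libraries was Tmed10, with a Pearson's r of 0.96, and the next was Tecpr2 with 0.93. For Dusp4 these were Tex21 with 0.84 and Msl3 with 0.83, so that its pattern was matched less closely. The other leading genes were Mrpl33 for Dusp6 (0.87), Preb for Spry2 (0.91), Wbp11 for Spry4 (0.91), Ldha for Spred1 (0.93), Angptl4 for Etv4 (0.93), Fbxo28 for Etv5 (0.94), Zic2 for Egr1 (0.91) and Napb for Fos (0.90). These values describe 15 libraries that share groups and replicate sets, and the highest of 8592 correlations is large by construction.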

How the data were processed

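Total RNA depleted of rRNA was sequenced from directional libraries. Per the labels and the study's methods, the authors trimmed reads (Trim Galore 0.3.3), aligned them to mm9 (TopHat2 2.0.9, 1 position kept for a read with several), counted them per gene in Seqmonk without stating the use of strand, and deposited variance-stabilised log2 values from DESeq2. Extraction by either of a pair of methods was not assigned to libraries.

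The transformation was inverted, which returned whole reads for 100% of values (tolerance 0.1). The deposited values were compared with limma 3.58.1 in R 4.3.3 (lmFit, eBayes with trend, group as the only term, all 15 libraries, two-sided). Genes above the table minimum in at least 5 libraries were tested, with Benjamini-Hochberg adjustment over 19490 genes and a threshold of 0.05. The fit was tested on simulated data, which had the same dispersion for all genes and no split between replicate sets. How the fit behaves with the split of these libraries was thus not tested. For single genes, exact permutation (two-sided) of 5 against 5 libraries was added. Overlaps and levels per exon length used GENCODE vM1 on mm9.

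The 10 genes and all lists were chosen with earlier results of these data known. Named from each list were called genes, or else the gene with the largest difference. Same-numbered libraries deviated together between shTet1 and shScr (r of 0.374 to 0.657 across genes) and between shTet2 and shTet1 (0.330 to 0.731), which was taken as pairing. For shTet2 against shScr only 4 of 5 pairs passed 0.1. A principal component with 37.9% of the variance of these deviations separated replicates 1 and 2 from 3 to 5. Libraries of different numbers were not set against each other, so the r of same-numbered libraries cannot tell pairing by number from this split. The labels give no batch. Repeat classes and small RNA libraries were not used here.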

Additional observations from a re-analysis of the deposited data

Results flagged for a closer look

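Of 30 sets of 5 libraries (10 genes in 3 groups), 2 held a library far from the others by Dixon's test, where chance gives about 1 in 20. Spry4 was at 12.1961 in shTet2 replicate 3, and its gap to the next library was 0.770 of the range of the group. Spred1 was at 11.1017 in shTet1 replicate 4, with a gap of 0.832 of the range. No reported difference of Spry4 or Spred1 passed the test with or without these libraries.

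The effects of the knockdowns on Fgfr1 differed from each other. Relative to the shared shScr libraries Fgfr1 was higher by 0.36 in shTet1 and differed by -0.77 in shTet2, neither of them called, and the difference between these effects was -1.13 (limma adjusted p = 0.00304), lower in 5 of 5 same-numbered pairs.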

How the results depend on the processing

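Fgfr1 stayed called for shTet2 against shTet1 in all 12 alternatives and without each of the 15 libraries, with limma adjusted p-values of up to 0.0487. Fgf1 and Fgf4 also stayed called for this comparison in all of these. The number of called genes in the panel for shTet2 against shTet1 rose from 1 to 2 with an adjusted p under 0.1, with array weights and with replicates 1 and 2 against 3 to 5 as a term (each adding Dusp4), and to 3 with the replicate block (Dusp4 and Fos added). Leaving out single libraries gave 1 to 2, with 2 without shTet1 replicate 4 or without shTet2 replicate 3. For shTet2 against shScr it rose from 0 to 2, Dusp4 and Fgfr1, with array weights and with the replicate block (limma adjusted p = 0.0083 and 0.033), although for this comparison 1 of 5 same-numbered pairs did not deviate together. Leaving out single libraries gave 0 to 1, with 1 (Fgfr1) without shTet2 replicate 3. For shTet1 against shScr it was 0 throughout. The block also called Fgf1, Otx2 and Thy1 higher and Dusp9, Pdgfra, Dab2 and Sox7 lower in shTet2 than in shScr. It called 840 genes of all tested for shTet2 against shScr in place of 76, 935 in place of 14 for shTet1 against shScr, and 2178 in place of 827 for shTet2 against shTet1.

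Median centring moved all differences of shTet2 against shScr by -0.11. Differences near 0 changed sign, all of them uncalled. For Dusp4 in shTet1 against shScr this gave -0.050 with median centring, -0.030 with quantile normalisation, -0.011 with the receptor reads as a covariate and -0.074 without the 4 libraries rich in them, which also gave -0.0040 for Spred1. The last 2 settings were chosen after seeing the data. In shTet2 against shScr, Spry4 had -0.041 with median centring and -0.077 with array weights, Etv4 had -0.023 with median centring and -0.047 without the 4 libraries, and Etv5 had 0.055 with quantile normalisation, 0.017 with voom on the recovered reads and 0.0049 with the covariate. Leaving out single libraries gave -0.19 to 0.096 for Dusp4, -0.083 to 0.14 for Spry2, -0.10 to 0.27 for Spred1 and -0.046 to 0.42 for Etv4 in shTet1 against shScr. It gave -0.29 to 0.071 for Spry2, -0.18 to 0.20 for Spry4, -0.20 to 0.26 for Etv4, -0.18 to 0.063 for Etv5 and -0.083 to 0.42 for Egr1 in shTet2 against shScr, and -0.36 to 0.0028 for Spry2 and -0.0030 to 0.18 for Etv5 in shTet2 against shTet1. The cause was not tested. Fos, with as few as 39 reads in a library, was most limited by depth.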

Other observations

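Among markers of the primed epiblast, the state that ESCs enter when they leave self-renewal under FGF signalling, Otx2 was called between the knockdowns. This transcription factor gene averaged 9.76 ± 0.52 for shScr, 9.47 ± 0.38 for shTet1 and 10.48 ± 0.36 for shTet2 (± SD, n = 5), with a difference of 1.01 between shTet2 and shTet1 (SE 0.24, limma adjusted p = 0.0192). It was higher in shTet2 in 5 of 5 same-numbered pairs. Eomes, a T-box factor of early mesoderm and endoderm, was called in the other direction, with a difference of -0.94 (SE 0.22, limma adjusted p = 0.0185), at 6.45 ± 0.39 for shTet2, 7.39 ± 0.24 for shTet1 and 6.59 ± 0.42 for shScr. Of the 7 markers in this list, 4 were higher and 3 lower in shTet2 than in shTet1, so that the list had no common direction. The call of Otx2 was lost without shTet2 replicate 1 or 2 (limma adjusted p of up to 0.0617), that of Eomes without shTet1 replicate 1 or shTet2 replicate 1, 2 or 4 (up to 0.0562), and both without the 4 libraries with many receptor gene reads (0.180 and 0.0556), where the differences were 0.97 and -0.97. Over these and all other alternatives the difference stayed between 0.87 and 1.15 for Otx2 and between -1.36 and -0.85 for Eomes. For shTet1 against shScr the difference of Eomes was 0.80 (limma adjusted p = 0.133, and 0.0176 with the replicate block).

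Of 15 trophoblast, neural and fibroblast markers tested, limma called 0 in each comparison, while at an unadjusted p under 0.05 there was 1 (Thy1) in either comparison of shTet2 and 0 for shTet1 against shScr. The shares of all genes at that p were 11.6% (shTet2 against shScr), 15.7% (shTet2 against shTet1) and 11.8% (shTet1 against shScr). In shTet2 against shTet1 all 5 trophoblast markers (median difference 0.25) and all 4 neural markers (0.22) were higher, as were 3 of 6 fibroblast markers. The largest differences were 0.56 for the trophoblast keratin gene Krt8 in shTet2 against shTet1 (limma adjusted p = 0.590), 0.61 for the neural progenitor gene Nes in shTet2 against shScr (limma adjusted p = 0.463) and 0.71 for the fibroblast surface gene Thy1 in shTet2 against shScr (limma adjusted p = 0.127, and 0.018 with the replicate block).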
